A study of Mus musculus with 12 samples.

Results

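The neuromuscular junction is the contact at which a motor nerve ending releases acetylcholine onto a muscle fibre. The receptor for acetylcholine is a channel built from alpha, beta and delta subunits together with a gamma subunit in foetal muscle or an epsilon subunit in adult muscle. Nerve-derived agrin binds Lrp4, which activates the receptor kinase MuSK. Dok7 activates MuSK from inside the fibre, and rapsyn holds the receptors in clusters. In adult muscle these genes are transcribed mostly by the few nuclei beneath the nerve ending, and electrical activity of the fibre represses receptor genes elsewhere. Denervated muscle loses this restriction, and receptor genes other than the epsilon gene, with Musk and Ncam1, then rise along the whole fibre.

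The genes described were the rows of the triceps brachii RNA-Seq table with the symbols Chrna1, Chrnb1, Chrnd, Chrne, Chrng, Musk, Rapsn, Dok7, Lrp4 and Ncam1. Of these 10 symbols 9 had a row, out of 10187 genes in all, and Chrng, the gamma subunit, was not analysed here. The triceps brachii is a muscle of the upper forelimb, and 12 male C57/BL6 mice were profiled in 4 groups of 3. Both genotypes received tamoxifen in the diet (0.025%, 6 weeks), the drug that switches on the recombinase, and Mstn was flanked by its target sites in the myostatin-reduced mice alone. From 6 months of age active mice lived singly with a running wheel for 12 weeks. Inactive wild-type mice are written IW, active wild-type mice AW, inactive myostatin-reduced mice IM and active myostatin-reduced mice AM. The promoter that drove Cre recombinase, and whether wild-type mice carried it, were not given in the sources used here. Single housing went with the wheel, so the effects of running and of housing cannot be told apart. Values are normalized read counts, which the authors scaled to equal trimmed means and did not divide by gene length.

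Estimated depth was 9023613 to 12184271 reads per mouse. Fibre markers marked the tissue as skeletal muscle, since all 7 of the fibre list were present and their summed level was 140205 to 210223. Within that list Myh4 was called lower and Myh1 and Myh2 higher in active mice by limma (adjusted p = 0.0127, 0.0019 and 0.0251). Of 13 markers of Schwann cells and nerve 5 had a row, with a summed level of 24.0 to 83.4. The targeted gene Mstn was lower in every myostatin-reduced mouse than in any wild-type mouse, and was 84.9% lower on average. RNA came from whole muscle, so a change in the number of synaptic nuclei and a change in RNA per nucleus cannot be told apart. Whether the pieces of muscle held the endplate band was not given.

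Levels were compared between genes after division by the longest protein-coding transcript. Rapsn was highest at 16.4 ± 1.24 normalized reads per kb (SD over all 12 mice), and its lowest mouse was above the highest mouse of any other junction gene. Chrnb1 followed with 10.2 ± 1.29 per kb and Chrne, the adult epsilon subunit, with 8.82 ± 1.90 per kb. These 2 neighbours were not separated, since Chrnb1 was above Chrne in 8 of 12 mice. Musk was at 6.01 ± 2.12, Dok7 at 4.06 ± 0.497, Chrna1 at 2.63 ± 0.674 and Lrp4 at 2.47 ± 0.375 per kb. Ncam1, a neural cell adhesion molecule, was at 1.25 ± 0.347 and the delta subunit Chrnd was lowest at 0.781 ± 0.429 per kb. Ranges over mice overlapped for every pair of neighbours in this order except Rapsn with Chrnb1 and Lrp4 with Ncam1. The order was the same when all annotated exons were used as the length.

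The reads behind these values were few. At the step that 1 read was worth, Rapsn rested on an estimated 238 to 362 reads per mouse, Chrna1 on 85 to 195 and Chrnd on 9 to 65. Within 0.1 of a read, values were whole in 4 of 12 mice for Rapsn, 5 for Chrna1 and 10 for Chrnd. They were whole in 2 of 12 mice for Musk and for Chrne, and in all 12 for Dok7 and Lrp4. The read numbers and counting errors are therefore estimates. For Chrnb1 the spread between mice of a group was 6.42% of the mean, and counting error alone was 6.48%. Dok7 and Rapsn were also close to counting error, at 10.3% against 8.93% and at 8.33% against 5.97%. Musk had a pooled spread of 33.2% against 6.95%, of which most came from AM mice (67.3%), while IW mice were at 17.4 ± 0.928 (SD, n = 3). Ncam1 had a spread of 26.5% against 10.3%. For Chrnd, counting error alone was 23.2% of the median mouse and the spread was 46.8%. Amplified copies of a molecule were not told apart, so these figures cover counting error only.

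**Figure D1:**
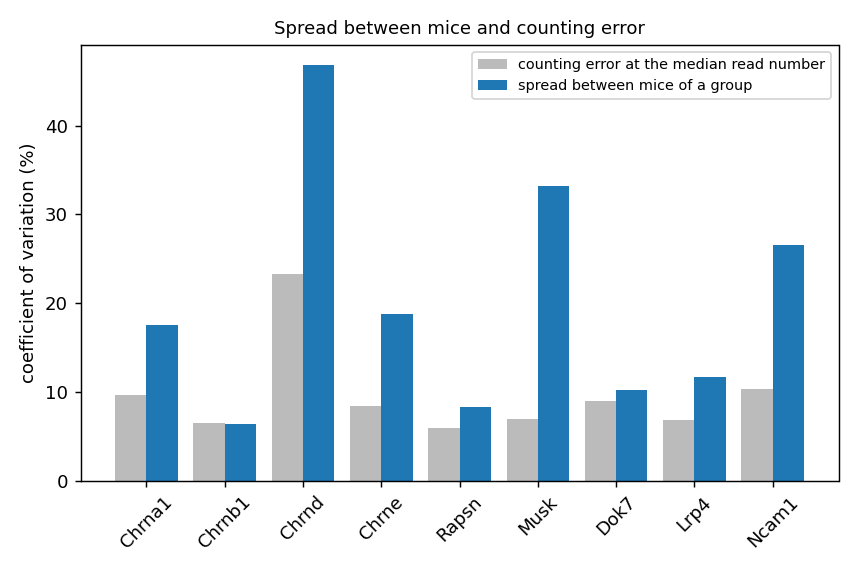
The coefficient of variation in percent is drawn for each junction gene, with grey bars for the counting error expected at the gene's median read number and blue bars for the pooled spread between mice within a group. Blue and grey bars are nearly equal for Chrnb1 (6.42% and 6.48%), and the gap is widest for Musk and Chrnd.

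A mean of at least 10 over all mice was required for the test across 7247 genes, and 7 of the 9 genes passed it. Chrnd and Ncam1 did not, and their fitted changes come from a fit of all 10187 genes. Changes are on the scale log2(value + 1), on which low genes change by less than their true ratio. Active and inactive mice were compared over both genotypes, to ask which genes responded to wheel running. Myostatin-reduced and wild-type mice were compared over both activity levels, to ask which genes responded to the loss of myostatin, and the interaction asked whether one response depended on the other factor.

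Among the receptor subunits, Chrna1 was the gene called higher in active mice. Chrnd, which was below the minimum mean, changed by 0.58 with activity and was not called (limma adjusted p = 0.116). Chrna1 encodes the alpha subunit, which carries most of the acetylcholine binding site, and lies on chromosome 2 from 73401272 to 73418395 on the minus strand (build NCBIM37, mm9). The IW mice had normalized read counts of 8.90, 10.7 and 8.87, and the AW mice 15.9, 13.4 and 13.3. The IM mice had 9.15, 8.73 and 9.19, and the AM mice 16.4, 14.5 and 9.40. Every active mouse was above every inactive mouse of its genotype, although AM mouse 3 was only just above the IM mice and below IW mouse 2. No other tested junction gene was separated by activity within both genotypes. Of all genes 7.81% were, 4.84% upwards and 2.97% downwards, and between IW and AW mice alone 17.5% were.

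The mean of Chrna1 was 13.8 in active and 9.25 in inactive mice, 49.2% higher with activity. Its log2 change was 0.51 (SE 0.116, 95% confidence interval 0.26 to 0.76, limma adjusted p = 0.0126). It was 1 of 7 tested junction genes called in this contrast, where 14.5% of all genes were called (7.99% higher and 6.51% lower), so the share of junction genes called was near that background. Chrna1 passed the minimum mean through the active mice alone, and in the fit of all 10187 genes its adjusted p-value in limma was 0.0130. The change was 0.54 in wild-type and 0.49 in myostatin-reduced mice (adjusted p = 0.15 and 0.0816 in limma). Wild-type mice alone gave 0 called junction genes (0.0276% of all genes were called), and myostatin-reduced mice alone also 0 (7.84% of all genes, 5.31% higher and 2.53% lower). Without AM mouse 3 the change of Chrna1 in myostatin-reduced mice was 0.71 and was called (adjusted p = 0.0212 in limma). It was not called in the other 11 fits that left out a mouse, where it went down to 0.34 and the adjusted p-value up to 0.282. When a score of slow-fibre genes entered the fit, the Chrna1 change over both genotypes was 0.49, against 0.51 without the score, and was no longer called (limma adjusted p = 0.0622). The summed level of the 11 slow-fibre markers, all in the table, was 117 to 1831 in active and 78.3 to 1370 in inactive mice.

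Of the 4 endothelial markers, Pecam1, Kdr and Tek were called higher with activity in limma, and Cdh5 was not (adjusted p = 0.0831). The summed level of the 4 overlapped, at 209 to 390 in active and 180 to 264 in inactive mice. Its difference did not pass a permutation test of mice (adjusted p = 0.28). The part of endothelial markers in the Chrna1 result was not tested. The genotype change of Chrna1 was -0.08 (95% interval -0.33 to 0.17, limma adjusted p = 0.731). The genes whose pattern over the 12 mice was most like that of Chrna1 were Kcng4, a potassium channel subunit, with r = 0.94, Pdhx, a part of the pyruvate dehydrogenase complex, with r = 0.88, and Gfm1, a mitochondrial elongation factor, with r = 0.88. The 100 most like genes had a median of 2.69 kb of annotated exons, against 4.29 kb for all genes with a mean of at least 50, and the part of message length in the Chrna1 result was not tested.

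Promoters of the receptor genes are known to be bound at E-boxes (CANNTG) by myogenic factors and, in synaptic nuclei, at an N-box (CCGGAA) by GABP. The 250 bases before the RefSeq start are printed for 3 subunits, which were chosen by the test results. Chrna1 was called for activity, Chrnb1 for genotype and Chrne for neither. The sequences come from RefSeq (GRCm38.p6) and each matched 1 place in NCBIM37, on the minus strand, at chr2:73418396-73418645 for Chrna1, chr11:69609440-69609689 for Chrnb1 and chr11:70432697-70432946 for Chrne. Capitals mark E-boxes and N-boxes, searched on both strands.
Chrna1: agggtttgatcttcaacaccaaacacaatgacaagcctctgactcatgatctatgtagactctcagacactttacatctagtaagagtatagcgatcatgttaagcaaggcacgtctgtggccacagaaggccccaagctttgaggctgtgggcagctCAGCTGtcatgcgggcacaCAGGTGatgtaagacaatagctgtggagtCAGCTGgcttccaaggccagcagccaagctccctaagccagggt
Chrnb1: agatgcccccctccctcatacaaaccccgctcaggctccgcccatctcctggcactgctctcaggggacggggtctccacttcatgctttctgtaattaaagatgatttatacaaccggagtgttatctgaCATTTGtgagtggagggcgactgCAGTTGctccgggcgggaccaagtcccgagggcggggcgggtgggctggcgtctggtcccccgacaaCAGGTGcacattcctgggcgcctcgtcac
Chrne: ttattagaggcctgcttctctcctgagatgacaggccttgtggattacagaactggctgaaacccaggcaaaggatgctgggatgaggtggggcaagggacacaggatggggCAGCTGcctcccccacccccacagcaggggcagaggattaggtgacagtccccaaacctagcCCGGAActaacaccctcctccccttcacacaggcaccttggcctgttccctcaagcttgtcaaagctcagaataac

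The Chrna1 window held 3 E-boxes, whose first bases were at -92, -73 and -44 from the start, and the Chrnb1 window held 3, at -119, -96 and -29. The Chrne window held 1 E-box at -138 and 1 N-box at -76. The Musk window, of a gene not called in the main fit, also held 3 E-boxes, as did the window of Chrng. Windows of Dok7 held 1 and 0 E-boxes. The number of E-boxes was not tested against the changes in level. Of 32851 promoter windows of the same length 12.2% held 3 or more E-boxes, 66.2% held at least 1 and 12.0% held an N-box. The motifs do not overlap each other in these windows. A match describes the letters only, and no binding was measured.

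Chrnb1, the beta subunit, was the junction gene called lower in myostatin-reduced mice. It lies on chromosome 11 from 69597538 to 69609445 on the minus strand. The IW mice had 26.1, 25.6 and 22.9 normalized reads, and the IM mice 16.7, 18.4 and 19.5. The AW mice had 23.2, 22.0 and 23.4, and the AM mice 20.4, 23.6 and 22.5. All IM mice were below all other mice, and AW and AM mice overlapped. Of all genes 25.8% were separated between IW and IM mice in one direction or the other.

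The means of Chrnb1 were 24.8 ± 1.72 in IW and 18.2 ± 1.38 in IM mice, 26.7% lower, against 22.9 ± 0.751 in AW and 22.1 ± 1.60 in AM mice (SD, n = 3). The genotype change was -0.24 on the log2 scale (SE 0.0601, 95% interval -0.37 to -0.11, limma adjusted p = 0.0396). It was 1 of 7 tested junction genes called in the genotype contrast, where 5.78% of all genes were called, 3.57% higher and 2.21% lower. Separation by genotype within both activity levels was seen in 0 of the 7 and in 5.37% of all genes, 2.81% higher and 2.55% lower. In inactive mice the change of Chrnb1 was -0.43 (SE 0.085, adjusted p = 0.0272 in limma; 2.51% of all genes were called), and in active mice -0.05 (adjusted p = 0.861; 0.207% of all genes were called). The call was narrow. Leaving out any mouse other than IW mouse 3 or AM mouse 2 ended it (adjusted p-values in limma of 0.0331 to 0.102 over the 12 fits), with a change between -0.26 and -0.21. It also ended without the filter on low values, with a replicate block and with the slow-fibre score in the fit (limma adjusted p = 0.0504, 0.0567 and 0.0781). The changes in these fits were -0.24, -0.24 and -0.23. The call in inactive mice ended without IW mouse 1, IW mouse 2 or any of the IM mice, with adjusted p-values of up to 0.134, and the change stayed between -0.48 and -0.37 over the 12 fits. With the slow-fibre score it was -0.42 and was not called (limma adjusted p = 0.0505). The summed slow-fibre markers were 78.3 to 112 for IM, 94.3 to 1370 for IW, 151 to 1831 for AW and 117 to 1343 for AM. Since they were low in all IM mice, a fit with the score cannot fully separate fibre content from group. The part of slow-fibre content in the Chrnb1 result was not tested.

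With activity, Chrnb1 changed by 0.08 over both genotypes (adjusted p = 0.402 in limma). In myostatin-reduced mice every AM mouse was above every IM mouse, and the change was 0.27 (adjusted p = 0.07), in a contrast where 29.8% of all genes were separated in one direction or the other. Without AM mouse 1 that change was 0.32 and was called (adjusted p = 0.0346 in limma), and in the other 11 such fits it was not (0.21 to 0.32, adjusted p up to 0.263). In wild-type mice it was -0.11 (adjusted p = 0.591). The 4 endothelial markers, summed, were also lowest in IM mice, at 180 to 189, against 209 to 264 for IW, 209 to 360 for AW and 232 to 390 for AM, and none of the 4 was called for genotype in limma (smallest adjusted p = 0.267). Their part in the Chrnb1 result was not tested. The single measured satellite cell marker Cdh15 was at 26.3 to 32.0 for IW, 21.9 to 28.02 for IM, 22.2 to 27.1 for AW and 21.9 to 23.7 for AM.

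Chrne, the epsilon subunit of the adult receptor, lies 0.819 Mb from Chrnb1 on chromosome 11, from 70428385 to 70432718. Its values were 11.6, 14.2 and 12.1 in IW, 14.0, 17.1 and 18.7 in IM, 15.4, 11.6 and 9.11 in AW and 19.1, 15.8 and 12.5 in AM mice. Myostatin-reduced mice were on the whole higher, but the groups overlapped at both activity levels. The genotype change was 0.37 (SE 0.130, 95% interval 0.09 to 0.65), which did not pass over all genes (unadjusted p = 0.0138, limma adjusted p = 0.116). Without AW mouse 1 it was 0.46 and passed (adjusted p = 0.037), and in the other 11 fits that left out a mouse it was 0.29 to 0.45 and did not pass (adjusted p up to 0.246). The activity change was -0.08 (95% interval -0.36 to 0.20, adjusted p = 0.712 in limma).

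Chrnd, the delta subunit, lies on chromosome 1 from 89087227 to 89096644, with Chrng 5.74 kb beyond it and Mstn 36.0 Mb away. Its values were 2.52, 1.29 and 1.57 in IW, 1.21, 3.22 and 2.92 in AW, 1.58, 0.820 and 1.75 in IM and 4.03, 4.99 and 1.73 in AM mice. The 2 highest mice were AM mice, but every pair of groups overlapped. Its mean was 3.02 in active and 1.59 in inactive mice. Its activity change was 0.58 (SE 0.224, 95% interval 0.10 to 1.07), with an unadjusted p of 0.022 and a limma adjusted p of 0.116 over 10187 genes. AM mouse 3 was the lowest AM mouse for both Chrna1 and Chrnd.

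**Figure D2:**
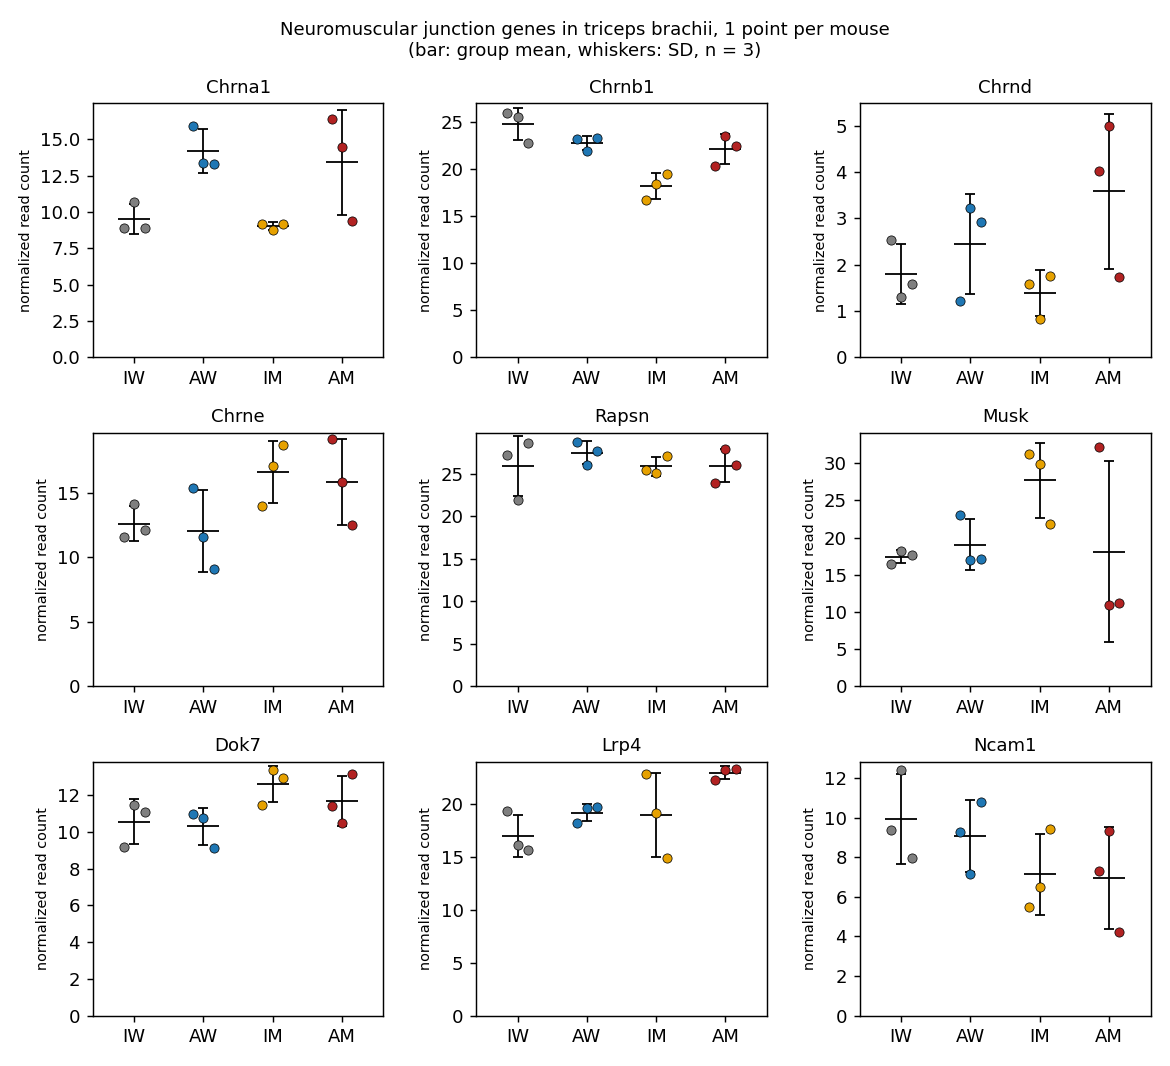
Normalized read counts are plotted on a linear axis from 0 for the 9 junction genes, with 1 point per mouse, a bar at the group mean and whiskers of 1 SD (n = 3), for IW, AW, IM and AM mice. Chrna1 sits between 13.3 and 16.4 in 5 of the 6 active mice and between 8.73 and 10.7 in the inactive mice, Chrnb1 is lowest in IM mice, and Musk spans 10.9 to 32.2 within AM mice.

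The balance among subunit messages was examined as the ratio of normalized read counts within each mouse, which was chosen after the values were seen and carries no test. Chrne per Chrna1 was 1.30, 1.33 and 1.37 in the IW mice and 0.967, 0.867 and 0.685 in the AW mice. It was 1.52, 1.95 and 2.03 in the IM mice and 1.17, 1.09 and 1.33 in the AM mice. The ratio was lower in every active than in every inactive mouse of its genotype, and higher in every myostatin-reduced than in every wild-type mouse of its activity level. Since Chrna1 itself rose with activity, 38.7% of all 7246 other genes shared the first separation, and 1.7% shared the second. Both held together in 82 genes, 1.13%. Mean Chrnb1 per Chrna1 was 2.63 ± 0.271 for IW mice, 1.62 ± 0.153 for AW, 2.02 ± 0.164 for IM and 1.75 ± 0.582 for AM (SD, n = 3).

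**Figure D3:**
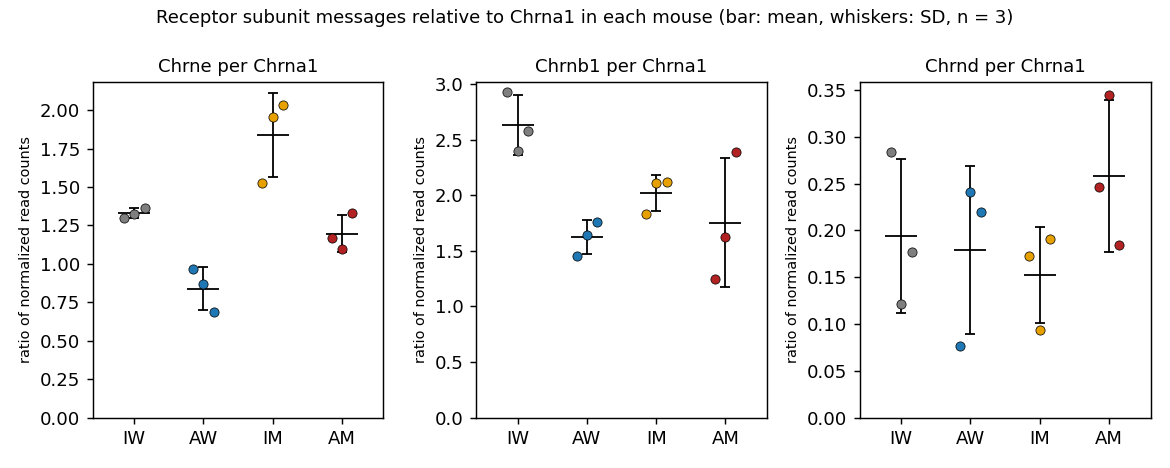
The ratio of the normalized read counts of Chrne, Chrnb1 and Chrnd to that of Chrna1 is plotted from 0 for each mouse, with a bar at the mean and whiskers of 1 SD (n = 3). Mean Chrne per Chrna1 is 1.33 for IW and 0.840 for AW mice, and 1.84 for IM and 1.20 for AM mice, and Chrnd per Chrna1 overlaps in every pair of groups.

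The gene of the clustering protein rapsyn had the smallest range over all 12 mice relative to its level, with a highest value 1.31 times the lowest, although Chrnb1 varied less within groups (6.42% against 8.33%). Rapsn lies on chromosome 2 from 90875777 to 90885886. Its lowest value over all 12 mice was 21.9, in IW mouse 2, and its highest 28.7, in AW mouse 1. Group means (SD, n = 3) were 25.9 ± 3.52 for IW, 27.4 ± 1.34 for AW, 25.8 ± 1.08 for IM and 25.9 ± 1.97 for AM, so all groups overlapped. The activity change was 0.04 (95% interval -0.10 to 0.19) and the genotype change -0.04 (95% interval -0.19 to 0.11), with limma adjusted p-values of 0.691 and 0.796. These intervals leave room for changes of at most 0.19 on the log2 scale in either direction.

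Musk, which encodes the receptor kinase, lies on chromosome 4 from 58298834 to 58390290. Its values were 16.4, 18.2 and 17.7 in IW and 31.3, 29.9 and 21.9 in IM mice. They were 23.0, 17.0 and 17.2 in AW and 32.2, 10.9 and 11.2 in AM mice. All IM mice were above all IW mice, while AM mice held both the highest and the lowest values of all 12 mice.

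The genotype change of Musk in inactive mice was 0.62 (SE 0.306, 95% interval -0.04 to 1.29, limma adjusted p = 0.323), and 25.8% of all genes were separated between IW and IM mice in one direction or the other. In active mice the genotype change was -0.23 (limma adjusted p = 0.8). Over both activity levels it was 0.19 (limma adjusted p = 0.648), and -0.05 without AM mouse 1. The activity change in myostatin-reduced mice was -0.75 (SE 0.306, unadjusted p = 0.0305, adjusted p = 0.144 in limma). Over both genotypes the activity change was -0.32 (SE 0.216, 95% interval -0.79 to 0.15, limma adjusted p = 0.344). These activity changes depended on single AM mice. Without AM mouse 1 they were -0.56 over both genotypes (adjusted p = 0.00561 in limma) and -1.23 in myostatin-reduced mice (adjusted p = 0.00595), and both were called. Without AM mouse 2 they were -0.19 and -0.49, and without AM mouse 3 -0.20 and -0.51, and neither was called (limma adjusted p = 0.361 to 0.612). The genotype change of Musk in inactive mice stayed at 0.62 without AM mouse 1 but was then called (adjusted p = 0.0426 in limma). The genes most like Musk over the 12 mice were Aff4 (r = 0.94), Ghr, the growth hormone receptor (r = 0.93), and Wnk1, a kinase of ion transport (r = 0.92). The 100 most like genes had a median of 8.49 kb of annotated exons, against 4.29 kb for all genes whose mean reached 50. The same median was 2.69 kb for the genes most like Chrna1, 2.88 kb for Rapsn, 3.05 kb for Lrp4, 3.47 kb for Chrnb1, 3.79 kb for Dok7 and 4.69 kb for Chrne. RNA quality was not measured in these files, and the part of message length in these results was not tested.

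Dok7, which activates MuSK from inside the fibre, lies on chromosome 5 from 35399462 to 35430488. Its values were 9.17, 11.4 and 11.1 in IW, 11.5, 13.4 and 13.0 in IM, 11.0, 10.8 and 9.12 in AW and 11.4, 10.5 and 13.2 in AM mice. IM mice were just above IW mice, a separation that 25.8% of all genes showed in one direction or the other, and the active groups overlapped. The genotype change was 0.20 (SE 0.0858, 95% interval 0.02 to 0.39) and did not pass over all genes (limma adjusted p = 0.189). The activity change was -0.07 (adjusted p = 0.625 in limma).

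Lrp4, the agrin receptor, lies on chromosome 2 from 91297668 to 91354058. Its values were 19.3, 16.1 and 15.7 in IW, 18.3, 19.6 and 19.8 in AW, 22.9, 19.2 and 14.9 in IM and 22.3, 23.3 and 23.4 in AM mice. All AM mice were above all AW mice, which 15.2% of all genes showed in one direction or the other, while IM mice spanned the range of both wild-type groups. The activity change was 0.23 (SE 0.0907, unadjusted p = 0.028, limma adjusted p = 0.115) and the genotype change 0.19 (adjusted p = 0.24). Without IM mouse 1 the activity change was 0.29 and passed (adjusted p = 0.0411 in limma), and without IM mouse 3 it was 0.15 (adjusted p = 0.215). The genotype change of Lrp4 was 0.12 without IM mouse 1 and 0.27 without IM mouse 3, and neither passed (adjusted p = 0.438 and 0.0782 in limma).

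Ncam1 encodes an adhesion molecule that in adult muscle is found at the junction and on satellite cells, nerve and Schwann cells. It lies on chromosome 9 from 49310257 to 49607027. Its values were 9.39, 12.4 and 7.95 in IW, 9.30, 7.17 and 10.8 in AW, 5.48, 6.48 and 9.44 in IM and 7.31, 9.31 and 4.24 in AM mice. The groups overlapped throughout. Its mean was 9.50 in wild-type and 7.04 in myostatin-reduced mice, and the genotype change of -0.41 (SE 0.176, unadjusted p = 0.0367) did not pass over 10187 genes (limma adjusted p = 0.219). The summed nerve and Schwann markers spanned 40.6 to 83.2 for IW, 24.0 to 46.5 for AW, 31.4 to 55.8 for IM and 43.8 to 83.4 for AM, and their part in Ncam1 was not tested.

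**Figure D4:**
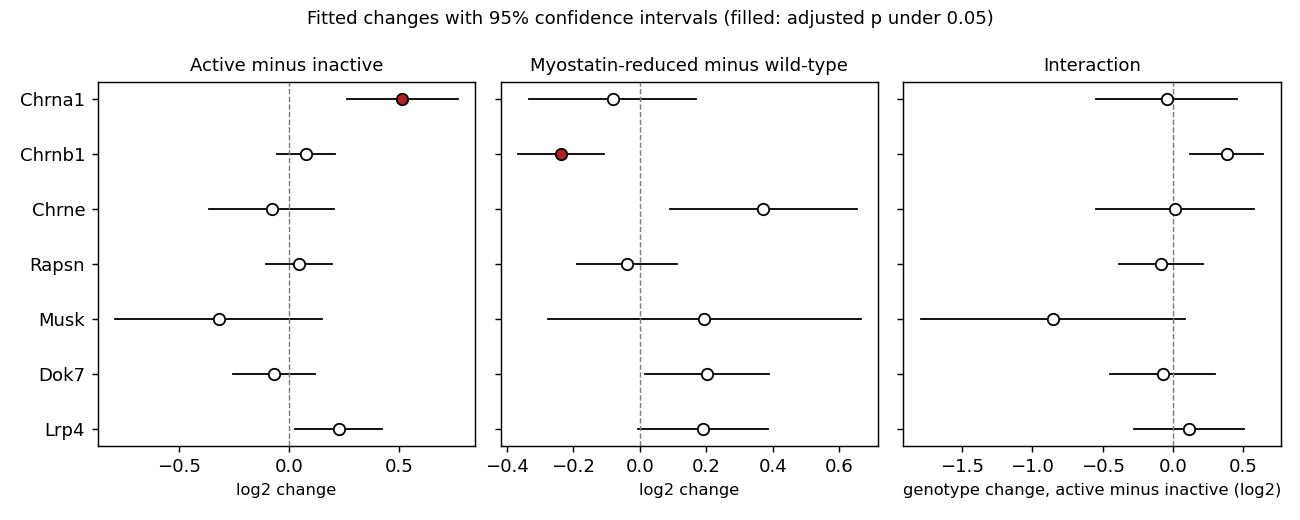
Fitted log2 changes of the 7 tested junction genes are drawn with 95% confidence intervals for activity, genotype and their interaction, and filled points mark a limma adjusted p-value under 0.05. Chrna1 at 0.51 for activity and Chrnb1 at -0.24 for genotype are the filled points, and no point is filled for the interaction.

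Across the 7 tested genes the median activity change was 0.04, with 4 positive and 3 negative values, against a median of -0.02 over all genes. For genotype the median was 0.19, against -0.005 over all genes, again with 4 positive and 3 negative values. The interaction of genotype and activity was called in 0 of the 7 (0% of all genes were called in limma), with 1 at an unadjusted p under 0.05 against 4.10% of all genes. That gene was Chrnb1, at 0.38 (unadjusted p = 0.00764, adjusted p = 0.89). The interaction of Musk was -0.85 (95% interval -1.79 to 0.08, adjusted p = 0.89 in limma). It was -1.34 without AM mouse 1 and -0.60 without AM mouse 2, and was called in 0 of the 12 fits that left out a mouse (smallest adjusted p = 0.096).

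Other genes of the junction were described from 5 lists of 63 genes, of which 53 had a row and 35 were tested. With activity 3 of the 35 were called higher and 4 lower, and with genotype 3 were called higher and 0 lower by limma. Over all genes 7.99% were called higher and 6.51% lower with activity, and 3.57% higher and 2.21% lower with genotype, and nothing particular to these lists is read from their counts. In the list of agrin, basal lamina and acetylcholinesterase genes, 8 were tested and Dag1, the dystroglycan gene, was called lower with activity (-0.18, adjusted p = 0.0453 in limma) and higher with genotype (0.21, adjusted p = 0.0385). Agrn and Ache were not called. In the list of MuSK and rapsyn signalling, 10 were tested. Pak1, a kinase that acts below MuSK in receptor clustering and has wider roles in the cytoskeleton, was called higher with genotype (0.80, SE 0.0855, adjusted p = 0.000419) and with activity (0.39, adjusted p = 0.0113). Mean Pak1 (SD, n = 3) was 33.5 ± 4.33 for IW, 52.7 ± 4.58 for AW, 70.1 ± 2.78 for IM and 77.8 ± 12.9 for AM.

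Dnaja3, a chaperone that binds MuSK and also works in mitochondria, was called higher with activity (0.16, limma adjusted p = 0.0241). In the list of other nicotinic and postsynaptic membrane genes 8 were tested. Chrna10, a nicotinic subunit outside the muscle receptor, was called higher with activity (0.40, SE 0.0745, adjusted p = 0.00508). Scn4a, the sodium channel that is concentrated at the junction and spreads the action potential over the fibre, was called lower with activity (-0.34, SE 0.0485, adjusted p = 0.00179), with means (SD, n = 3) of 826 ± 12.9 for IW against 637 ± 50.3 for AW, and 871 ± 37.3 for IM against 710.3 ± 22.9 for AM. Ank3 (-0.29, adjusted p = 0.0234), which anchors sodium channels, and Cacna1s (-0.20, adjusted p = 0.0402), the voltage sensor of the fibre, were also called lower.

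Of 15 genes known to respond when muscle loses its nerve, not all in the same direction, 13 had a row and 7 were tested. With activity 0 of the 7 were called, where 14.5% of all genes were, and with genotype 1 was called, where 5.78% of all genes were. The gene called was Gadd45a, higher in myostatin-reduced mice (0.53, SE 0.0989, limma adjusted p = 0.00975). Gadd45a, a stress-induced gene of growth arrest, had means (SD, n = 3) of 12.1 ± 2.15 for IW, 12.3 ± 1.95 for AW, 18.5 ± 0.671 for IM and 17.6 ± 2.09 for AM. Myog, the factor that drives receptor genes after denervation, had no row and was not analysed here. In the neuregulin and synaptic transcription list 2 of 9 genes were tested and 0 were called in limma in either contrast.

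**Figure D5:**
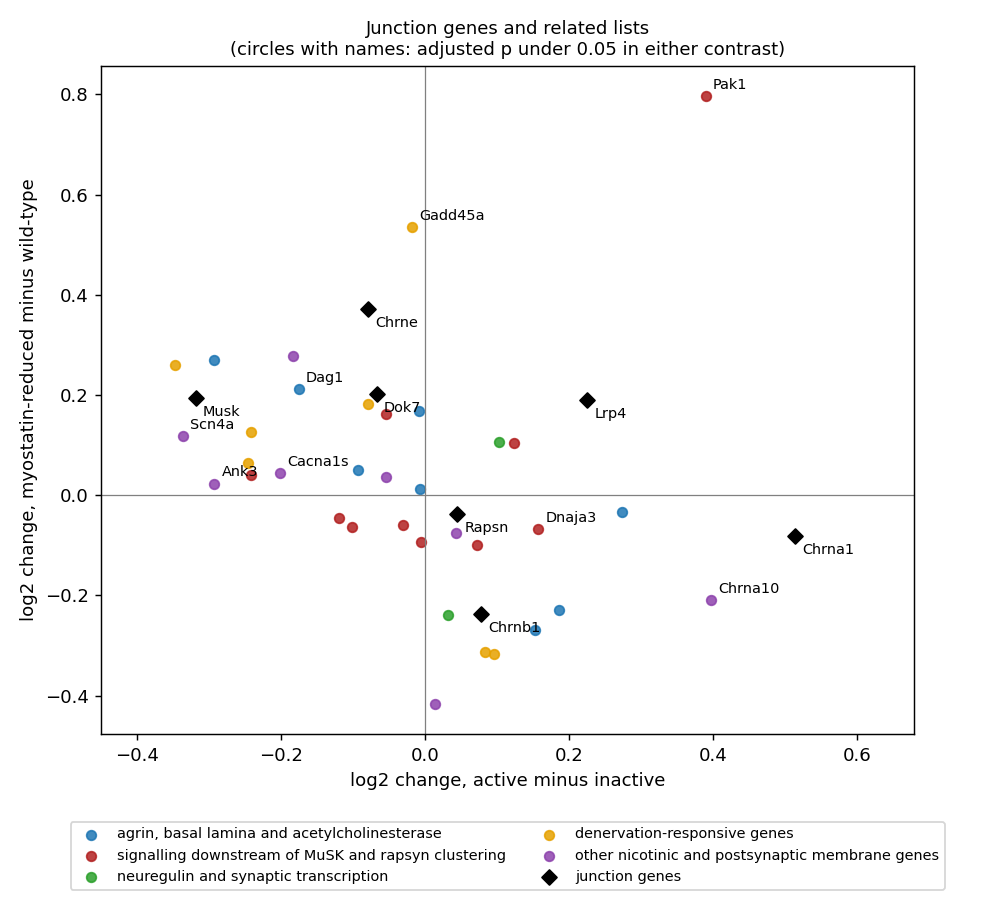
The log2 change with activity is plotted against the log2 change with genotype for 35 genes of the 5 related lists (circles, coloured by list) and the 7 tested junction genes (black diamonds). Circles with names passed in at least 1 contrast, with Pak1 at 0.39 and 0.80 and Gadd45a near 0 and 0.53, and Chrna1 is the junction gene farthest to the right.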

How the data were processed

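Polyadenylated RNA of triceps brachii was sequenced by the authors as single-end reads on a Genome Analyzer IIx. The authors mapped reads with CASAVA (version not given in the sources used here) to mm9, counted reads in RefSeq exons and summed them to genes. The authors deposited these counts as a normalized signal, scaled to equal trimmed means. All 12 columns were matched to samples by title. In every row the highest group mean was at least 3.00. Strand use in counting was not given.

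The members, the related lists and the tests were chosen with earlier results of these data known. Values were tested with limma 3.58.1 (moderated variance with an intensity trend) in R 4.3.3 on log2(value + 1), with 1 mean per group over all 12 mice, for genes with a mean of at least 10. Two-sided p-values were adjusted by Benjamini-Hochberg over all genes tested, with 0.05 as the limit for a call. Every member and Mstn were named. From the related lists every gene called for activity or genotype was named (up to 12 per contrast), and for each tested member the rule took the 3 genes with the highest Pearson r over 12 mice, out of those whose mean reached 50. On simulated data the fit of the activity difference over 7247 genes recovered 95 of 100 genes changed by 0.5 and 97 of 100 changed by 1 on the log2 scale, with 7 false calls. The simulated mice had independent normal noise at each gene's fitted SD and no genotype effect. These shares therefore need not hold for the measured genes.

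The smallest spacing of low values gave the worth of 1 read and so the depth. Within 0.1 of a read, 90.2% to 92.8% of values under 5 were whole, but between 20 and 50 only 71.6% to 74.7% were, so whole reads were not recovered and no count model was run. Positions and lengths are from GENCODE vM1 (NCBIM37). Promoters of 6 of the 10 members were found in the RefSeq table. Replicate numbers in the titles name different mice. Between IM and AM, mice that share a number deviated together from their group means (r = 0.236, 0.171 and 0.322), which no other pair of groups showed for all 3 numbers. A replicate block was an alternative, besides other pseudocounts, filters, scalings, sample weights, robust variance, a slow-fibre covariate and leaving out each mouse.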

Additional observations from a re-analysis of the deposited data

Results flagged for a closer look

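The interaction of Chrnb1, 0.38 on the log2 scale, was picked out because the genotype change differed between activity levels by a limma test with an unadjusted p of 0.00764. It did not pass over all genes (adjusted p = 0.89), and adjusted p-values were 0.268 to 0.999 across the alternatives. Chrnb1 was at 24.8 ± 1.72 in IW and 18.2 ± 1.38 in IM mice, against 22.9 ± 0.751 in AW and 22.1 ± 1.60 in AM mice (SD, n = 3). The spread between mice of a group was 6.42% of the mean, close to the counting error of 6.48%.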

How the results depend on the processing

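Of 1029 recomputed changes of single junction genes 1000 kept their direction or stayed uncalled, 20 lost a call and 9 gained one, and 0 called changes turned their sign. With the slow-fibre covariate 0 junction genes were called for activity, 0 for genotype and 0 for genotype in inactive mice, and 401 genes in all were called for activity. Sample weights called 1740 genes for activity and 2 junction genes (Chrnb1 and Musk) for activity in myostatin-reduced mice. For genotype 0 junction genes were called without a filter on low values (Chrnb1 at adjusted p = 0.0504 in limma). With the replicate block 0 were called for genotype (Chrnb1 at adjusted p = 0.0567), and the block changed no other call of a junction gene. A minimum mean of 50 left 272 genes called for genotype and no junction gene to test. With each mouse left out in turn, junction genes called were 1 to 2 for activity, 0 to 1 for genotype, 0 to 2 for activity in myostatin-reduced mice and 0 to 2 for genotype in inactive mice. Genes called in all were 552 to 1485 for activity, 180 to 579 for genotype and 0 to 1 for the interaction. The cause of these changes was not tested. Depth limits Chrnd most, since an estimated 9 to 65 reads per mouse lay behind it.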

Other observations

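Markers of other cells were summed in each mouse and compared by an exact permutation test of mice within each level of the other factor (14 tests, smallest possible two-sided p = 0.005). By this permutation test endothelial markers differed by 0.48 with activity (p = 0.03, adjusted p = 0.28) and slow-fibre markers by 1.75 with activity (p = 0.11, adjusted p = 0.308) and by -1.31 with genotype (p = 0.17, adjusted p = 0.38). In the same permutation test the nerve and Schwann markers differed by 0.03 with activity (p = 0.955) and by 0.12 with genotype (p = 0.73), fibroblast markers by -0.14 with activity (p = 0.19) and macrophage markers by -0.24 with activity (p = 0.08). Cdh15, the satellite cell marker with a row, differed by -0.15 with activity (permutation p = 0.08) and by -0.16 with genotype (permutation p = 0.06). No difference passed after adjustment (smallest adjusted p = 0.28).

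The genes most like Chrnb1 over the 12 mice were 2310002L09Rik (r = 0.89), Bnip2 and Yipf7 (both 0.87), and those most like Chrne were AI464131, Amot (both 0.87) and Tollip (0.85). Ubxn4, Sec62 and Ociad2 were most like Dok7 (0.93, 0.92 and 0.91), 0610009O20Rik, Aqp4 and Crhr2 were most like Lrp4 (0.87, 0.82 and 0.82), and Ube2g2, Psmb4 and Pcbp2 were most like Rapsn (0.74, 0.71 and 0.71). These r are descriptions over 12 mice that share libraries and scaling.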
